A study of Bos taurus with 6 samples.

Results

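Respiratory complex I and the factors that assemble it are encoded mostly by genes whose symbols start with NDUF, and all genes of the deposited expression table with such a symbol were taken as members. There were 45 of them among 17663 genes. RNA had been sequenced from bovine fetal fibroblasts (bEFs) isolated from Bos taurus fetuses aged 50 to 60 days and grown in culture. The passage of the cells used for RNA is not given. The FT group was made of 3 fetuses with the fat-1 transgene, which encodes an n-3 fatty acid desaturase, and the WT group of 3 wild-type fetuses of Luxi cattle, with 1 poly(A) library per fetus (FT_1 to FT_3 and WT_1 to WT_3). The promoter of the transgene, the breed of the FT fetuses and how they were derived are not given in the sources used here, so genotype and any such difference cannot be told apart. The total count per library was 63366834, 48167642 and 54204446 in FT_1, FT_2 and FT_3, and 69777641, 51310741 and 54271927 in WT_1, WT_2 and WT_3. NDUFA1 and NDUFB11, on the X chromosome, and the core subunits encoded in mitochondrial DNA were not analysed here, because the table holds genes of chromosomes 1 to 29 only.

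Complex I is the largest enzyme of the respiratory chain in the inner mitochondrial membrane. It takes electrons from NADH through a flavin and a chain of iron-sulfur clusters in its peripheral arm to ubiquinone, and its membrane arm pumps protons that ATP synthase later uses. Core subunits carry out this chemistry, accessory subunits surround and stabilise them, and assembly factors help to build the complex and then leave it.

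FT_1 stood apart from the other FT libraries. Compared in pairs of libraries, the chi-square per gene, averaged over genes and near 1 for sampling noise, was 766 between FT_1 and FT_2 and 825 between FT_1 and FT_3, against 11.7 between FT_2 and FT_3 and 20.3 to 36.3 between pairs of WT libraries. The summed FPKM (fragments relative to gene length and sequencing depth) of 8 fibroblast markers was 6753, 16892 and 16609 in the FT libraries and 17685, 17160 and 17232 in the WT libraries, with VIM the most abundant in FT_3 and the WT libraries and DCN in FT_1 and FT_2, and none of the 8 was at 0 in any library. The sums of FT_2 and FT_3 were near those of the WT libraries, but single markers lay apart from them. VIM, an intermediate filament, had 1244, 3850.2 and 4171 FPKM in the FT libraries and 7891, 8178 and 7312 FPKM in the WT libraries. LUM and DCN, proteoglycans of the matrix, were at 551 and 1804 FPKM in FT_1, under every WT library, and above every WT library in FT_2 and FT_3. PDGFRA, a growth factor receptor, had 218, 166 and 141 FPKM in the FT libraries and 93.5, 87.0 and 99.7 FPKM in the WT libraries and was the marker called higher in FT cells (log2 fold change 1.06 ± 0.17 (SE), adjusted p 0.00530, edgeR). PDGFRA and THY1 were highest in FT_1, against the low sum of that library. Without FT_1 4 of the 8 were called higher and 1 lower, against 30.6% and 31.5% of the genes tested in that fit. LUM was then at 1.37 (adjusted p 1.91e-07), DCN at 1.01 (adjusted p 1.61e-06), COL1A1 at 0.39 (adjusted p 0.000326) and VIM at -0.79 (adjusted p 1.06e-05) in edgeR. For 4 epithelial markers the sum was 132, 8.40 and 9.20 in the FT libraries and 10.0, 7.83 and 13.9 in the WT libraries. KRT8 was the most abundant of them in FT_1, at 84.1 FPKM, against 0.950 in FT_2 and 0.610 in FT_3, and KRT8 and KRT18 were at 0 in the WT libraries, where CDH1 made up the sum. EPCAM was at 0.570 FPKM in FT_1 and at 0 in the other 5 libraries. KRT8 and KRT18 did not pass with all libraries and were called higher without FT_1, at 9.94 (adjusted p 3.67e-05) and 7.92 (adjusted p 0.00109) in edgeR. With the replicate block they were called higher with all libraries too (edgeR adjusted p 0.0140 and 0.0233). These folds are over WT libraries at 0 counts, so their size is not a measured value.

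As sums, smooth muscle, mesothelial and skeletal muscle markers were at higher levels in the FT libraries, with no overlap between groups, though each list had a member that did not follow its sum. The summed FPKM of 4 smooth muscle markers was 2272, 3483 and 3353 in the FT libraries and 1083, 1066 and 1190 in the WT libraries, with ACTA2 the most abundant in each library but WT_2, where it was TAGLN. CNN1, ACTA2 and TAGLN were called higher in edgeR, at 3.05 ± 0.18 (SE, adjusted p 0.000523), 2.04 ± 0.27 (SE, adjusted p 0.00278) and 0.66 ± 0.10 (SE, adjusted p 0.00448) on the log2 scale. MYH11, which did not pass, was at 0.0700 FPKM in FT_1, under every WT library, and at 1.58 and 1.46 in FT_2 and FT_3, above them, and without FT_1 it was called higher too, at 3.48 (adjusted p 3.44e-07) in edgeR. For 3 mesothelial markers the sum was 199.7, 45.0 and 46.3 in the FT libraries and 2.32, 3.48 and 3.34 in the WT libraries, most of it MSLN, called higher in edgeR at 5.26 ± 0.74 (SE, adjusted p 0.00346), while WT1 was at 0 in the FT libraries and UPK3B was above the WT libraries in FT_1 only and below them in FT_2 and FT_3. For 2 skeletal muscle markers the sum was 5.77, 4.60 and 3.78 in the FT libraries and 1.13, 1.31 and 1.93 in the WT libraries, with DES at 3.17 to 5.74 FPKM in FT libraries and at 0 in WT_2 and WT_3. That sum was carried by DES, called higher in edgeR at 7.44 ± 1.17 (SE, adjusted p 0.00488), and MYF5 went the other way, with 0.0300, 0.590 and 0.610 FPKM in the FT libraries and 1.06, 1.31 and 1.93 FPKM in the WT libraries (adjusted p 0.212 in edgeR and 0.0376 in limma on log2(FPKM + 1)). The 2 neural markers, most of the sum being NES, added to 11.6, 54.7 and 56.5 in the FT libraries and 22.2, 25.9 and 21.1 in the WT libraries. NES did not pass with all libraries and was called higher without FT_1, at 1.62 (adjusted p 3.46e-07) in edgeR. TUBB3, the other of them, was lower in every FT library, with 2.03, 1.24 and 1.54 FPKM in the FT libraries and 2.74, 3.74 and 3.19 FPKM in the WT libraries (log2 fold change -0.85 ± 0.25 (SE), adjusted p 0.0384, edgeR). The 4 endothelial markers added to 0.760, 0.260 and 0.260 in the FT libraries and 1.15, 0.710 and 0.910 in the WT libraries, led by PECAM1 in the WT libraries, with KDR at 0 in the FT libraries. The 3 leukocyte markers added to 4.25, 4.06 and 3.36 in the FT libraries and 7.87, 6.56 and 7.66 in the WT libraries, led by CD14, with CD68 called lower at -1.24 ± 0.29 (SE, adjusted p 0.0185) in edgeR and AIF1 at 0 in FT_2, FT_3 and WT_3. MYF5, PECAM1 and CD14 did not pass in edgeR with all libraries and were called lower without FT_1, at -1.09 (adjusted p 0.0129), -2.49 (adjusted p 0.000451) and -0.67 (adjusted p 0.0115). MYOD1, MYOG, PTPRC and SOX10 were not analysed here. The part of these markers, and of any mixture of cells behind them, in the differences of the NDUF genes was not tested, except that values without FT_1 are given, and in bulk RNA fewer cells of a type and less RNA per cell cannot be told apart.

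NDUF genes took a smaller share of the RNA in FT cells than in WT cells. Their summed count was 92990, 69444 and 74118 in the FT libraries and 172450, 137849 and 129976 in the WT libraries, in the order of the replicate numbers, which is kept throughout. As a share of all counts, with a 95% Wilson interval that covers counting error only, this was 0.147% (0.146 to 0.148), 0.144% (0.143 to 0.145) and 0.137% (0.136 to 0.138) in the FT libraries. In the WT libraries the share was 0.247% (0.246 to 0.248), 0.269% (0.267 to 0.270) and 0.239% (0.238 to 0.241). Every FT share lay under every WT share, FT_1 included, and the mean was 0.143% ± 0.00520 in FT cells and 0.252% ± 0.0151 in WT cells (SD, n = 3 fetuses each). The 10 genes with the highest counts, FN1 among them, took unequal shares of the groups. With those 10 genes left out of the totals the share was 0.172, 0.169 and 0.161% in the FT libraries and 0.274, 0.296 and 0.266% in the WT libraries.

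**Figure D1:**
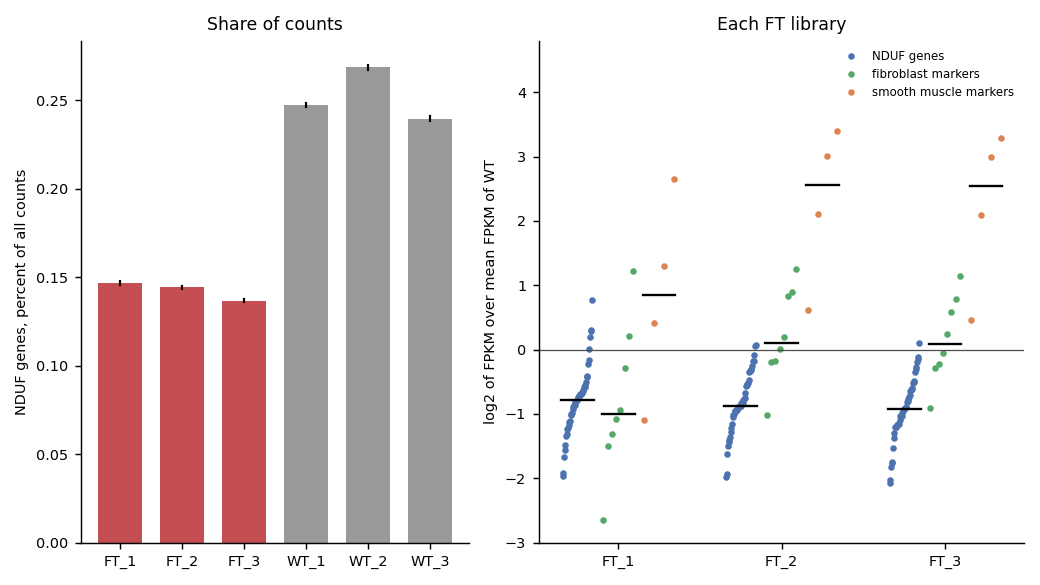
Left, share of all counts taken by the 45 NDUF genes in each library, in percent, with black bars for the 95% Wilson interval. Right, log2 of each gene's FPKM in an FT library over its mean in the WT libraries, with 1 point per gene and a black line for the median, in which the NDUF genes lie at similar levels in the 3 FT libraries while most fibroblast markers are lower in FT_1 than in FT_2 and FT_3.

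Of the 45 NDUF genes, all of which had enough counts to be tested, 33 were lower in FT cells by edgeR's quasi-likelihood test at a Benjamini-Hochberg adjusted p under 0.05, against 18.9% of the 13482 genes tested. None was higher in FT cells at that threshold by edgeR, against 20.1% of all genes tested. At an unadjusted p under 0.05 edgeR put 1 NDUF gene higher (NDUFV3), against 25.7% of all genes tested. DESeq2 also put 1 higher and limma on log2(FPKM + 1) put 0. The shares of all genes higher at that p are not given for those fits. In limma 36 were lower, against 29.2% of the 12247 genes it tested.

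The median log2 fold change (FT minus WT) was -0.68 over the NDUF genes and 0.034 over all genes tested, and 41 of the 45 had a negative value. With counts scaled by library totals only, the median over all genes moved to -0.12 and that over the NDUF genes to -0.83, so the values below are relative to edgeR's scaling. At the threshold of the study's methods (a log2 fold change beyond 1 in size with an unadjusted p under 0.05), 7 NDUF genes were lower (NDUFV1, NDUFA5, NDUFS4, NDUFB3, NDUFB1, NDUFC1 and NDUFAF7), against 8.96% of all genes tested, and 0 were higher, against 10.2%. Without WT_3 there were 11 lower at that threshold, by library totals 13 and with a length trend removed 5. In limma there were 11 on log2(FPKM + 1) and 14 on log2(FPKM + 0.1). The shares of all genes at that threshold are not given for these fits. In FPKM, 38 of the 45 had every FT library under every WT library, against 36.9% of all genes tested, and 0 had every FT library over every WT library, against 21.8%.

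The calls did not rest on FT_1. Without it edgeR put 36 of the 45 NDUF genes lower, against 31.5% of the genes tested in that fit, and 1 higher, against 30.6%. The 33 genes called lower with all 6 libraries were all among the 36. After scaling, the level of 44 of the 45 NDUF genes in FT_1 was within 1.5-fold of the mean of FT_2 and FT_3, which held for 64.4% of all genes tested. The exception was NDUFA4L2, 4.51-fold higher in FT_1. The median coefficient of variation of scaled counts within the FT group was 9.37% for NDUF genes and 18.1% for all genes tested, and within the WT group 7.41% and 8.69%. Most NDUF genes are abundant, and among the 8119 genes tested whose FT and WT means add to at least 10 FPKM the share within 1.5-fold was 75.3% and the median coefficient of variation 12.6% in the FT group and 6.44% in the WT group, which is under the NDUF value for WT.

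**Figure D2:**
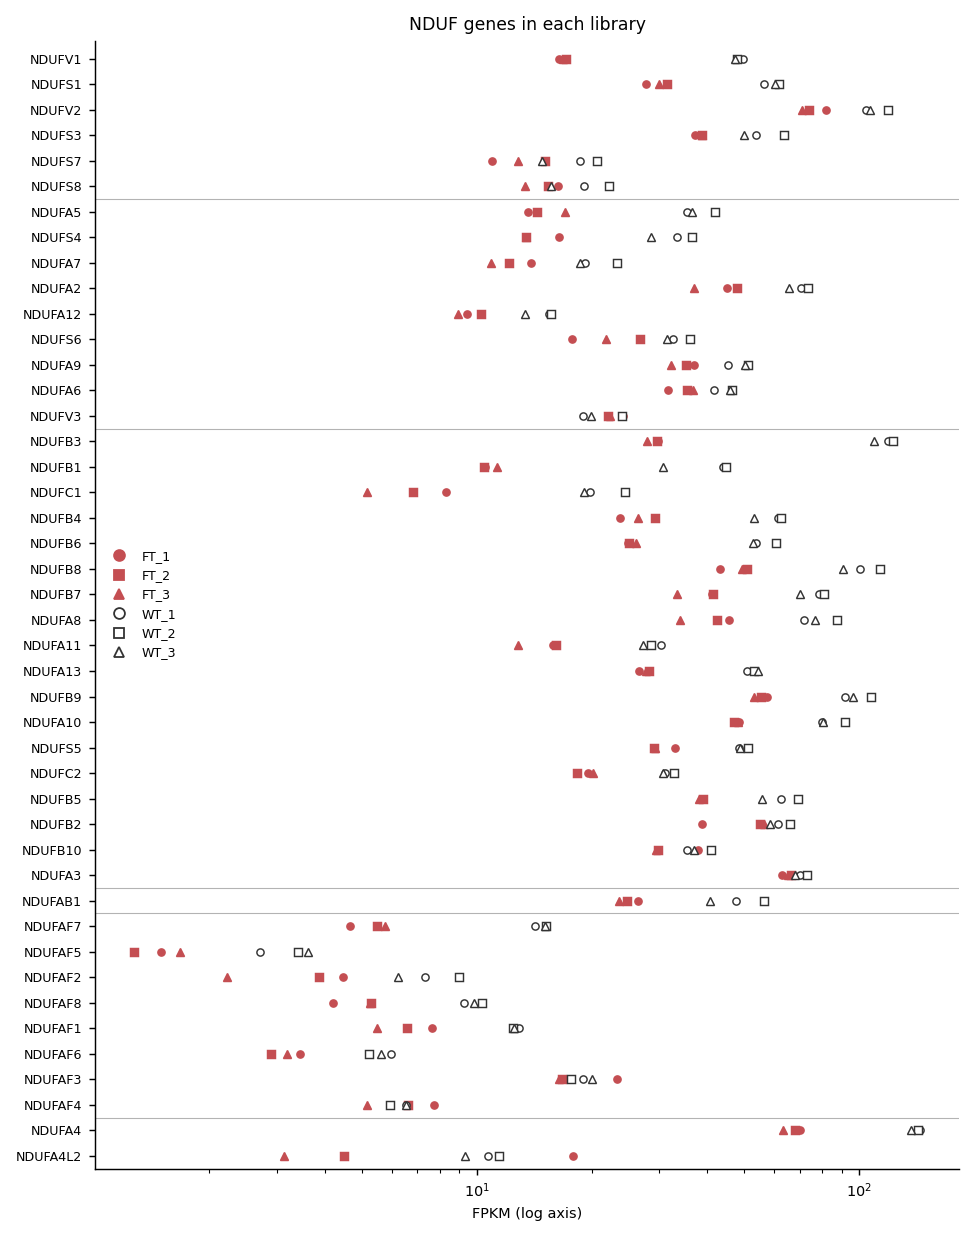
FPKM of 44 NDUF genes, NDUFA4L2 among them, in each library on a log axis, filled red for FT and open for WT, grouped from top to bottom into core subunits, peripheral arm accessory subunits, membrane arm accessory subunits, the acyl carrier protein NDUFAB1, NDUFAF assembly factors and the NDUFA4 family. The groups are separate with FT lower for most genes plotted, by a narrow gap for NDUFA3, whose scaled difference in edgeR is 0.040 but -0.11 by library totals.

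The 7 nuclear core subunits, all of the peripheral arm, had a median log2 fold change of -0.38. In edgeR 5 were lower in FT cells, against 18.9% of all genes tested. With a trend on gene length removed these were -0.21 and 3, against 20.2% of all genes lower in that fit. Their summed FPKM was 257, 255 and 240.2 in the FT libraries and 420.5, 459.7 and 403 in the WT libraries. NDUFV1 (ENSBTAG00000021776), which binds the flavin and accepts electrons from NADH, had 16.4, 17.1 and 16.8 FPKM in the FT libraries and 49.6, 48.0 and 47.5 FPKM in the WT libraries (log2 fold change -1.37 ± 0.068 (SE), adjusted p 0.000523, edgeR). The FT libraries lay close together, on average at 0.347 times the WT mean, and did not overlap the WT libraries. NDUFS1 (ENSBTAG00000021976), the largest core subunit and a carrier of iron-sulfur clusters, had 27.7, 31.5 and 29.9 FPKM in the FT libraries and 56.5, 61.9 and 60.2 FPKM in the WT libraries (log2 fold change -0.84 ± 0.090 (SE), adjusted p 0.00162, edgeR). It was lower in each FT library than in any WT library.

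Smaller differences were found for further core subunits. NDUFV2, an iron-sulfur protein next to NDUFV1, had 82.2, 73.9 and 70.8 FPKM in the FT libraries and 104, 119 and 107 FPKM in the WT libraries (log2 fold change -0.38 ± 0.089 (SE), adjusted p 0.0189, edgeR). NDUFS3, which links the subunits at the base of the arm, had 37.2, 38.9 and 38.9 FPKM in the FT libraries and 53.9, 63.5 and 50.0 FPKM in the WT libraries (log2 fold change -0.38 ± 0.11 (SE), adjusted p 0.0357, edgeR). Both groups of libraries were separate for these genes. Calls were lost in some fits to 5 libraries, while the folds stayed of like size. Both were kept without FT_1 (edgeR adjusted p 0.000759 for NDUFV2 and 0.0143 for NDUFS3), and that of NDUFS3 also without WT_3 (edgeR adjusted p 0.0422). For NDUFV2 the edgeR adjusted p was 0.0629 without FT_2, 0.0650 without FT_3, 0.0505 without WT_1, 0.0643 without WT_2 and 0.0534 without WT_3, with log2 fold changes of -0.43 to -0.32. For NDUFS3 it was 0.0846 without FT_2, 0.0776 without FT_3, 0.0908 without WT_1 and 0.0866 without WT_2, with -0.41 to -0.28. With a length trend removed both folds were smaller and not called, at -0.19 and -0.14 (edgeR adjusted p 0.114 and 0.320). NDUFS7, which carries the last cluster before ubiquinone, had 10.9, 15.1 and 12.8 FPKM in the FT libraries and 18.6, 20.6 and 14.9 FPKM in the WT libraries and did not pass the test (log2 fold change -0.32 ± 0.18 (SE), adjusted p 0.202, edgeR). NDUFS8, another iron-sulfur subunit, had 16.3, 15.3 and 13.4 FPKM in the FT libraries and 19.1, 22.2 and 15.6 FPKM in the WT libraries and did not pass either (log2 fold change -0.18 ± 0.15 (SE), adjusted p 0.373, edgeR). For NDUFS7 and NDUFS8 the highest FT library lay above WT_3, so the groups overlapped. With 1 library left out their log2 fold changes were -0.44 to -0.20 and -0.30 to -0.055, and by library totals -0.47 and -0.33, called in none of these fits.

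Of the 9 accessory subunits of the peripheral arm, 6 were lower in FT cells, against 18.9% of all genes tested in edgeR. The other 3 did not pass the test, and the median log2 fold change of the 9 subunits was -0.48. With a trend on gene length removed 3 were lower, against 20.2% of all genes in that fit, and the median was -0.25. In limma on log2(FPKM + 1) 8 were lower, against 29.2% of all genes it tested. NDUFA5 (ENSBTAG00000009334) had 13.6, 14.4 and 17.1 FPKM in the FT libraries and 35.6, 42.1 and 36.5 FPKM in the WT libraries (log2 fold change -1.18 ± 0.13 (SE), adjusted p 0.00197, edgeR). NDUFS4 (ENSBTAG00000003728), a subunit whose loss in humans causes Leigh syndrome, had 16.4, 13.4 and 13.4 FPKM in the FT libraries and 33.5, 36.5 and 28.5 FPKM in the WT libraries (log2 fold change -1.03 ± 0.13 (SE), adjusted p 0.00230, edgeR). In both genes the highest FT library was well under the lowest WT library. NDUFA2, which has a thioredoxin-like fold, had 45.2, 47.9 and 37.0 FPKM in the FT libraries and 70.6, 73.7 and 65.7 FPKM in the WT libraries (log2 fold change -0.53 ± 0.11 (SE), adjusted p 0.0144, edgeR). Its groups were separate, though the edgeR adjusted p was 0.0589 without WT_1 and 0.0594 without WT_2, at log2 fold changes of -0.53 and -0.50, and 0.124 with a length trend removed, at -0.21. The other called members of the arm, NDUFA7, NDUFA9 and NDUFA12, are named only to complete the count, with log2 fold changes of -0.57, -0.33 and -0.48. The call of NDUFA7 was not kept in every fit with a library left out. Without WT_2, where 26 of the 33 calls were kept, that of NDUFA9, of NDUFA12 or of both was lost too.

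NDUFV3 was the peripheral subunit with a positive value. It binds near NDUFV1 and had 24.1, 22.0 and 22.4 FPKM in the FT libraries and 18.9, 24.0 and 19.9 FPKM in the WT libraries (log2 fold change 0.28 ± 0.11 (SE), adjusted p 0.0842, edgeR). The WT_2 value lay within the FT range, and the edgeR adjusted p was 0.0483 without FT_1 and 0.0354 without WT_2, which are calls of a higher level in FT cells. By library totals its log2 fold change was 0.13 and in limma 0.12, and neither passed. NDUFS6, a zinc-binding subunit, had 17.7, 26.7 and 21.8 FPKM in the FT libraries and 32.7, 36.2 and 31.5 FPKM in the WT libraries (log2 fold change -0.44 ± 0.17 (SE), adjusted p 0.0849, edgeR). NDUFS6 was lower in each FT library than in any WT library, with FT_1 lowest, and its adjusted p in edgeR was 0.0328 without FT_1 and 0.0361 without FT_2. It was also called lower by library totals, at -0.59 (edgeR adjusted p 0.0305), and in limma on log2(FPKM + 1), at -0.59 (adjusted p 0.0232). NDUFA6, which holds an acyl carrier protein on the arm, had 31.7, 35.4 and 36.9 FPKM in the FT libraries and 41.7, 46.5 and 46.0 FPKM in the WT libraries (log2 fold change -0.21 ± 0.11 (SE), adjusted p 0.167, edgeR). Its FPKM values did not overlap, and its call turned with the scaling, to -0.36 by library totals (edgeR adjusted p 0.0308) and -0.36 in limma on log2(FPKM + 1) (adjusted p 0.0190), both lower in FT cells, and to 0.11 with a length trend removed (edgeR adjusted p 0.469).

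Of the 18 accessory subunits of the membrane arm, 15 were lower in FT cells, against 18.9% of all genes tested in edgeR. The median log2 fold change of the 18 subunits was -0.78. Their summed FPKM was 607, 620.4 and 594 in the FT libraries and 1112, 1212 and 1059 in the WT libraries. NDUFB3 (ENSBTAG00000012760) had the lowest log2 fold change of all 45 members. Its counts were 944, 710 and 752 in the FT libraries and 4129, 3120 and 2936 in the WT libraries. In FPKM this was 29.9, 29.6 and 27.8 FPKM in the FT libraries and 119, 123 and 109 FPKM in the WT libraries (log2 fold change -1.85 ± 0.082 (SE), adjusted p 0.000523, edgeR). The FT libraries were within a narrow range, 75.1% under the WT mean on average.

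NDUFB6 had 24.8, 25.1 and 26.1 FPKM in the FT libraries and 53.8, 60.6 and 52.9 FPKM in the WT libraries (log2 fold change -0.98 ± 0.091 (SE), adjusted p 0.00119, edgeR). NDUFA13, also known as GRIM-19, had 26.6, 28.3 and 27.7 FPKM in the FT libraries and 50.8, 53.0 and 54.5 FPKM in the WT libraries (log2 fold change -0.78 ± 0.075 (SE), adjusted p 0.00129, edgeR). NDUFA10 (ENSBTAG00000003279), a subunit related to nucleoside kinases, had 48.6, 47.1 and 48.2 FPKM in the FT libraries and 80.2, 92.0 and 80.3 FPKM in the WT libraries (log2 fold change -0.65 ± 0.083 (SE), adjusted p 0.00264, edgeR). For each of these the FT libraries varied little and none reached a WT value. NDUFB1 and NDUFC1, small subunits named after their values were seen because they pass the study's threshold, had log2 fold changes of -1.73 ± 0.19 and -1.48 ± 0.21 (SE). The other called members of the membrane arm lay between NDUFB4, the lowest of them, and NDUFB5, the highest, which was at -0.53.

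In the membrane arm 3 subunits did not pass the test. NDUFB2 had 38.8, 55.1 and 56.3 FPKM in the FT libraries and 61.5, 66.2 and 58.5 FPKM in the WT libraries (log2 fold change -0.15 ± 0.17 (SE), adjusted p 0.521, edgeR). FT_1 was the low library there, and without it the log2 fold change was 0.015, by library totals -0.30 and with a length trend removed 0.19. NDUFB10 had 37.8, 29.8 and 29.5 FPKM in the FT libraries and 35.5, 41.0 and 36.9 FPKM in the WT libraries (log2 fold change -0.066 ± 0.12 (SE), adjusted p 0.688, edgeR), and FT_1 lay within the WT range. Its log2 fold change was -0.18 to -0.0084 with 1 library left out, -0.21 by library totals and 0.10 with a length trend removed, called in none of them. NDUFA3 had 62.9, 66.4 and 65.0 FPKM in the FT libraries and 70.2, 73.0 and 67.8 FPKM in the WT libraries (log2 fold change 0.040 ± 0.080 (SE), adjusted p 0.719, edgeR). Its FPKM values were slightly lower in FT cells, and its sign turned with the scaling, to -0.11 by library totals and -0.12 in limma on log2(FPKM + 1). With a length trend removed it was called higher in FT cells, at 0.42 (edgeR adjusted p 0.0148).

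**Figure D3:**
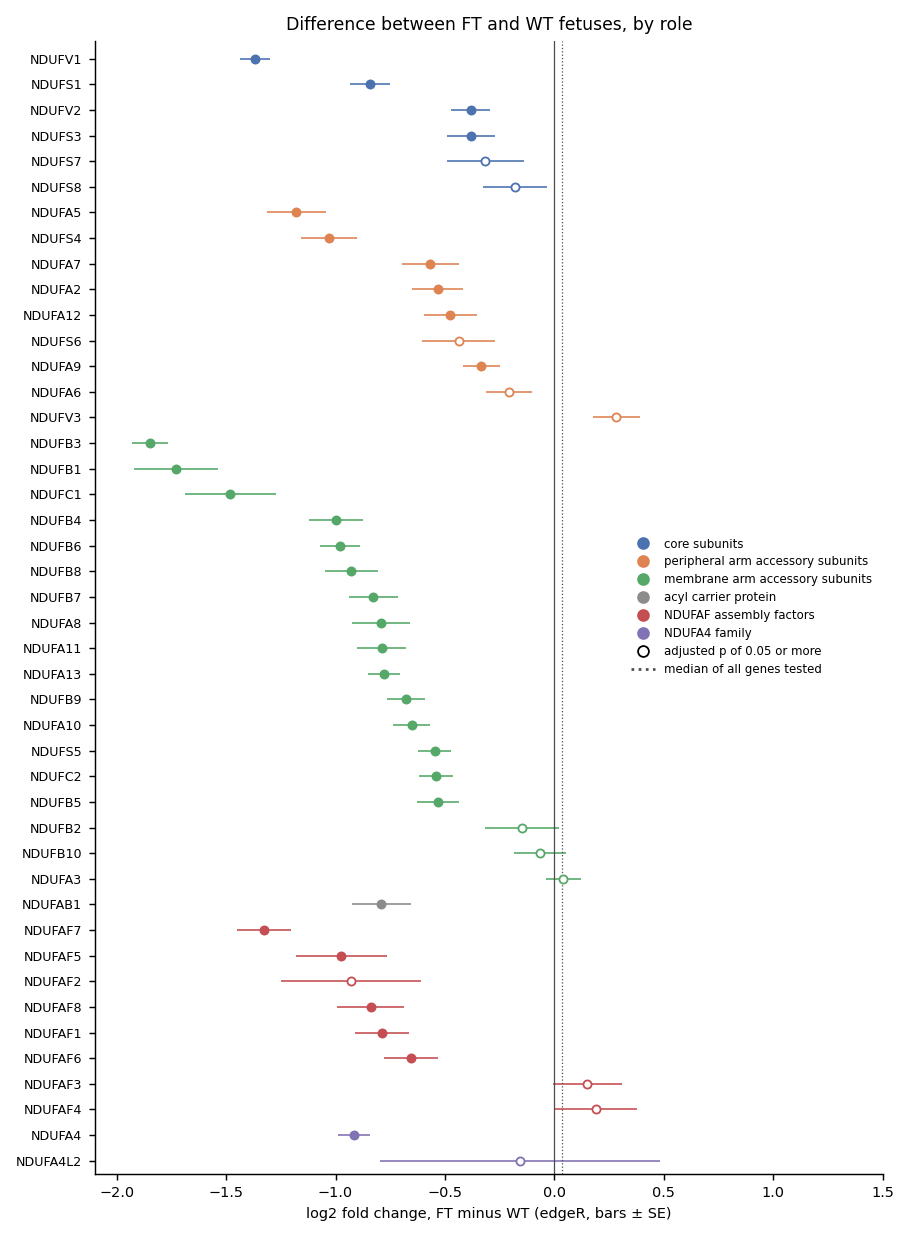
Log2 fold change between FT and WT cells in edgeR for 44 NDUF genes, coloured by role, with bars of 1 SE, filled points for an adjusted p under 0.05 and a dotted line at the median of all genes tested. NDUFB3, NDUFB1 and NDUFC1 of the membrane arm lie lowest, and the 4 genes with positive values (NDUFV3, NDUFA3, NDUFAF3 and NDUFAF4) are open points, of which NDUFA3 turns negative by library totals and NDUFA3 and NDUFAF3 in limma on FPKM.

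NDUFAB1 (ENSBTAG00000006391), the mitochondrial acyl carrier protein, is both a subunit of complex I and a carrier in mitochondrial fatty acid synthesis. It had 26.4, 24.8 and 23.6 FPKM in the FT libraries and 47.5, 56.3 and 40.6 FPKM in the WT libraries (log2 fold change -0.79 ± 0.13 (SE), adjusted p 0.00651, edgeR). The WT libraries varied more than the FT libraries, and the groups did not overlap.

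Assembly factors with NDUFAF symbols were expressed at lower levels than the subunits, with a median WT mean of 8.66 FPKM against 44.7 over all NDUF genes. Of the 8 factors 5 were lower in FT cells, against 18.9% of all genes tested in edgeR, and the median log2 fold change was -0.81. NDUFAF7 (ENSBTAG00000001113), a methyltransferase that acts early in assembly, had 4.65, 5.49 and 5.75 FPKM in the FT libraries and 14.2, 15.2 and 15.1 FPKM in the WT libraries (log2 fold change -1.33 ± 0.12 (SE), adjusted p 0.00119, edgeR). NDUFAF1, part of the complex that builds the membrane arm, had 7.64, 6.56 and 5.48 FPKM in the FT libraries and 12.9, 12.4 and 12.6 FPKM in the WT libraries (log2 fold change -0.79 ± 0.12 (SE), adjusted p 0.00486, edgeR). NDUFAF8, a partner of NDUFAF5, had 4.20, 5.28 and 5.26 FPKM in the FT libraries and 9.27, 10.3 and 9.86 FPKM in the WT libraries (log2 fold change -0.84 ± 0.15 (SE), adjusted p 0.00836, edgeR). No FT library reached the lowest WT value in these genes. NDUFAF6 and NDUFAF5, outside the rule for named genes, were also called, at -0.66 ± 0.12 and -0.97 ± 0.21 (SE), with 127 to 195 counts of NDUFAF5 in FT libraries. Neither call was kept in every fit with a library left out.

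NDUFAF2, which binds a late intermediate, had 4.48, 3.88 and 2.22 FPKM in the FT libraries and 7.32, 8.98 and 6.21 FPKM in the WT libraries and did not pass the test (log2 fold change -0.93 ± 0.32 (SE), adjusted p 0.0621, edgeR). Its FT libraries all lay under the WT libraries, and the adjusted p was 0.00514 without FT_1 in edgeR and with all libraries 0.0277 in DESeq2, 0.0428 in edgeR by library totals and 0.0202 in limma on log2(FPKM + 1). NDUFAF3 and NDUFAF4 act together on early intermediates. NDUFAF3 had 23.3, 16.8 and 16.4 FPKM in the FT libraries and 18.9, 17.7 and 20.1 FPKM in the WT libraries (log2 fold change 0.15 ± 0.16 (SE), adjusted p 0.486, edgeR), with FT_1 the highest library, and its log2 fold change was -0.017 without FT_1 and -0.021 in limma on log2(FPKM + 1). NDUFAF4 had 7.71, 6.60 and 5.16 FPKM in the FT libraries and 6.53, 5.95 and 6.53 FPKM in the WT libraries (log2 fold change 0.19 ± 0.19 (SE), adjusted p 0.454, edgeR), with 0.060 without FT_1, 0.32 without FT_3, 0.042 by library totals and 0.016 in limma on log2(FPKM + 1). For this pair the FT range enclosed the WT range.

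The NDUFA4 family is named after complex I, although NDUFA4 is now counted as a subunit of complex IV. NDUFA4 (ENSBTAG00000011145) was the most abundant NDUF gene in WT cells and had 70.1, 68.0 and 63.1 FPKM in the FT libraries and 144, 143 and 136 FPKM in the WT libraries (log2 fold change -0.92 ± 0.071 (SE), adjusted p 0.000827, edgeR). Each FT value was under every WT value. NDUFA4L2, its relative that is induced by low oxygen, had 17.8, 4.51 and 3.13 FPKM in the FT libraries and 10.7, 11.4 and 9.30 FPKM in the WT libraries and did not pass the test (log2 fold change -0.16 ± 0.64 (SE), adjusted p 0.865, edgeR). FT_1 was above every WT library and FT_2 and FT_3 were below every WT library. Without FT_1 the log2 fold change was -1.28 with an edgeR adjusted p of 0.000159, and without FT_2 or FT_3 it was 0.14 or 0.23.

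RPLP0, a ribosomal protein gene that served as reference in the study's RT-qPCR of NDUFS1 and NDUFA10, had 2615, 1576 and 1555 FPKM in the FT libraries and 2413, 2487 and 2659 FPKM in the WT libraries (log2 fold change -0.24 ± 0.22 (SE), adjusted p 0.420, edgeR). FT_1 lay within the WT range and FT_2 and FT_3 below it. Without FT_1 its log2 fold change was -0.52 with an edgeR adjusted p of 8.70e-05, and it was -0.12 without FT_2, -0.12 without FT_3, -0.39 by library totals, -0.44 in limma on log2(FPKM + 1) and -0.054 with a length trend removed, not called in those fits.

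Complex I also needs assembly factors with other names, and 8 of 11 of these were lower in FT cells in edgeR (72.7%, against 18.9% of all genes tested) and 3 did not pass the test, with a median log2 fold change of -0.69. TMEM126B, which works with NDUFAF1, had 6.08, 7.82 and 7.96 FPKM in the FT libraries and 19.6, 22.3 and 19.8 FPKM in the WT libraries (log2 fold change -1.33 ± 0.16 (SE), adjusted p 0.00213, edgeR). DMAC1, a membrane arm factor, had 7.06, 5.76 and 4.82 FPKM in the FT libraries and 13.5, 14.4 and 13.9 FPKM in the WT libraries (log2 fold change -1.09 ± 0.16 (SE), adjusted p 0.00393, edgeR). FT values were lower in both without overlap. Of 6 genes of other routes that bring electrons to ubiquinone, 3 were lower (50.0%, against the same 18.9% of all genes), among them ETFDH at -0.84 ± 0.13 and SQOR at -0.49 ± 0.098 (SE).

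Most nuclear genes of the other complexes of the chain were lower too. Of 38 genes of complexes II to V, 29 were lower in edgeR, which is 76.3% against 73.3% of the NDUF genes and 18.9% of all genes tested, and 0 were higher, against 20.1% of all genes tested. Their median log2 fold change was -0.97. By complex, 3 of 4 genes of complex II were lower, 7 of 9 of complex III, 3 of 8 of complex IV and 16 of 17 of ATP synthase. For complex IV the count was 5 without FT_1, against 31.5% of the genes tested in that fit. It was 6 in limma on log2(FPKM + 1), against 29.2% of the genes tested there. In FPKM, 8 of 8 had every FT library under every WT library, against 36.9% of all genes tested. The genes named by rule were SDHD (-1.13 on the log2 scale) and SDHA (-0.98), UQCR11 (-1.19) and UQCRFS1 (-1.10), COX7A2 (-1.51) and COX6B1 (-1.10), and ATP5PB (-1.41) and ATP5MC1 (-2.05), all called lower. Whether NDUF genes differ from these lists was not tested.

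**Figure D4:**
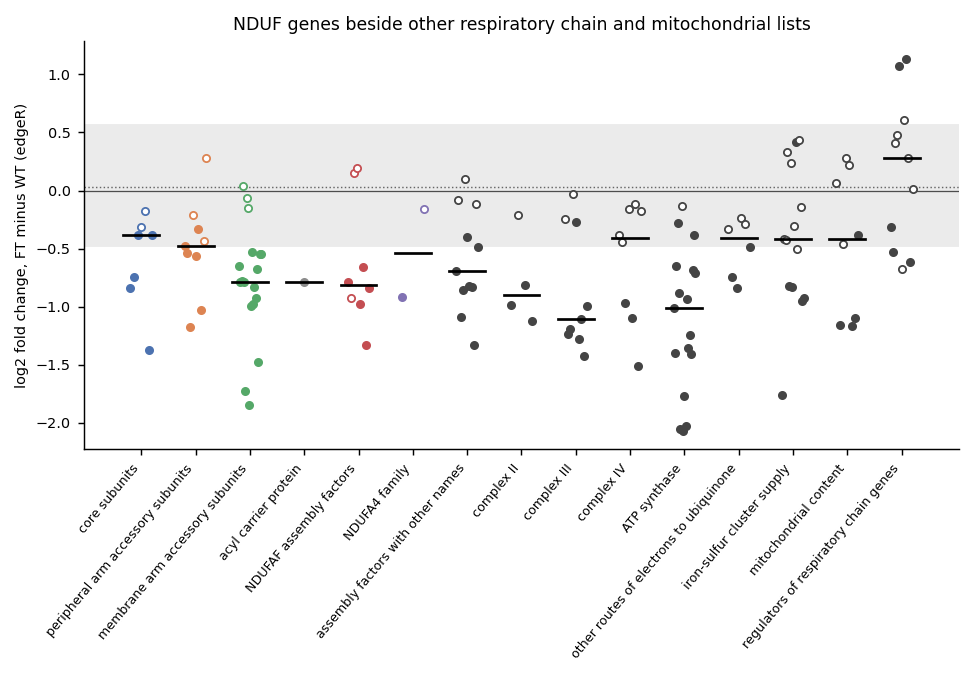
Log2 fold change between FT and WT cells in edgeR for NDUF genes by role and for other respiratory chain and mitochondrial lists, with 1 point per gene, filled at an adjusted p under 0.05, and a black line at each list's median. The shaded band holds the middle 50% of all genes tested, and the medians of the core subunits, peripheral arm subunits, complex IV, other routes to ubiquinone, iron-sulfur supply, mitochondrial content and regulators lie in it while those of the other lists lie below it.

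The NDUF genes were spread over 23 of 29 chromosomes in the authors' table, with at most 6 on 1 chromosome (chromosome 7). The closest pair was NDUFV1 and NDUFS8, 90.3 kb apart on chromosome 29, the member with the lowest log2 fold change among core subunits and the one with the highest. Another gene of the table overlapped 7 members (NDUFAF7, NDUFB5, NDUFAF6, NDUFA13, NDUFS5, NDUFA2 and NDUFA4L2), and how reads in such overlaps were counted is not stated, so their values carry that uncertainty. The partners did not all behave alike. NDUFAF7 shares 184 bases with CEBPZ on the other strand, whose mean was 31.9 FPKM in FT and 30.0 FPKM in WT cells. MRPL47, which shares 128 bases with NDUFB5 on the other strand, was at 10.1 and 25.2 FPKM in FT and WT cells, and ENSBTAG00000014968, which shares 381 bases with NDUFA13 on the same strand, at 1.19 and 3.62 FPKM, both in the direction of the member they overlap. TMCO6 and SHMT2, over NDUFA2 and NDUFA4L2 on the other strand, had higher means in FT cells (13.6 against 10.2 FPKM and 142 against 103 FPKM).

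NDUF genes are short, and fold changes were weakly related to length across the table. By relative length, the count of a gene over its FPKM, 40 of 45 members were shorter than the median gene tested. Spearman's rho between relative length and log2 fold change was 0.185 across 12628 genes with a length and 0.053 across the 45 NDUF genes, as a description of genes that share the same 6 libraries. With a smooth trend on length removed, 28 NDUF genes were lower, against 20.2% of the genes in that fit, and 1 was higher, NDUFA3 at 0.42, against 20.8%, and their median was -0.51. The calls lost were of core and peripheral arm accessory subunits, while the membrane arm kept its 15 lower subunits. NDUFV2 and NDUFS3 of the core had edgeR adjusted p of 0.114 and 0.320, and NDUFA2, NDUFA9 and NDUFA12 had 0.124, 0.0868 and 0.133. NDUFAB1, NDUFB4, NDUFB5, NDUFB7 and NDUFB9 stayed lower but moved by over 1.5 times, to -0.49, -0.65, -0.34, -0.51 and -0.43. NDUFA6, NDUFB2, NDUFB10 and NDUFA4L2, not called in either fit, turned to 0.11, 0.19, 0.10 and 0.063. NDUFV1, NDUFB3, NDUFA5 and NDUFAF7 stayed lower, at -1.38, -1.51, -0.92 and -1.25.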

How the data were processed

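RNA of bEFs from 3 FT and 3 WT fetuses was measured in 1 library each. In the table deposited by the authors, each gene has a raw count and an FPKM value per library. The submitters' processing notes name HISAT2 2.0, StringTie 1.3.0 and Bowtie 0.12.2, and the genome build of the bovine coordinates is not given in the sources used here. The build those notes list is mm8, of the mouse, while the gene IDs and chromosomes of the table are bovine. The extraction text in the labels mentions an adipose type, although the samples are labelled as fibroblasts. The notes and the methods differ in the sequencer and in the RNA input. The treatment of reads shared between near-identical genes is not described, so such genes are uncertain.

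Counts were fitted with edgeR 4.0.16 in R 4.3.3 over all genes that passed filterByExpr, with TMM scaling, the quasi-likelihood test for FT against WT and Benjamini-Hochberg adjustment over all genes tested. The SE of a log2 fold change was its size over the square root of F. Alternatives used RLE factors, library totals, no low-count filter, DESeq2 1.42.0, limma 3.58.1 on log2(FPKM + 1) and log2(FPKM + 0.1) for genes with a mean of at least 0.5 FPKM, a replicate block, a length trend as offset, and each library left out. p-values are over fetuses, and an exact permutation test of 3 against 3 cannot go below 0.10. Only edgeR, edgeR with the length offset and limma on log2(FPKM + 1) were tried on simulated counts. Those counts had the same spread in every library, with no outlying library such as FT_1.

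The members and the gene lists were chosen with earlier results of these data known. The named genes are the core subunits, NDUFAB1, the NDUFA4 family, NDUFS1 and NDUFA10, the 3 members with the smallest p in each other class, every member with a positive value or an adjusted p of 0.05 or more, the 2 genes with the smallest p in each other list, and RPLP0, and not every one of them is described. For a reason unrelated to its values, 1 NDUF gene that is in all counts, sums and medians is not reported here by itself or drawn with a label. All 45 member symbols matched RefSeq symbols of the ARS-UCD2.0 assembly. The sex of the fetuses was not tested.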

Additional observations from a re-analysis of the deposited data

How the results depend on the processing

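Of the 672 values of named genes over 14 alternatives, 624 kept their direction and their side of the threshold, 17 kept the direction but were no longer called, 18 kept it and became called, and 13 changed sign. Every alternative gave 26 to 36 NDUF genes lower in FT cells, and 25 were called lower in each of them and in the fit reported. Over all genes, 1570 of 13847 tested were lower without WT_2, the fit with 26 NDUF genes. Without FT_1, where 36 NDUF genes were lower, this was 4337 of 13765, and without WT_1 it was 1531 of 13804. The share of all genes called lower in every fit is not given. The sign changes were all of genes not called in the fit reported.

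By library totals 13 NDUF genes passed the study's threshold, the median was -0.83 and NDUFA3 was at -0.11, and 62.4% of all calls were lower in FT cells against 48.4% with TMM. In limma on log2(FPKM + 1) these were 11, -0.80 and -0.12, with NDUFAF3 at -0.021 and 66.0% of calls lower. In limma on log2(FPKM + 0.1) they were 14, -0.83 and -0.12, with NDUFAF3 at -0.022. The median of all genes moved too, to -0.12 by library totals and to -0.12 and -0.15 in the limma fits. The share of all genes at the study's threshold is not given for these fits or for those with a library left out. With the length trend as offset 1 NDUF gene was higher, the median was -0.51 and its distance from that of all genes -0.54, and NDUFA6, NDUFB10, NDUFB2 and NDUFA4L2 were at 0.11, 0.10, 0.19 and 0.063. The cause was not tested.

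Leaving out each library in turn gave 26 to 36 NDUF genes lower and 0 to 1 higher, 6 to 11 at the study's threshold, a median of -0.73 to -0.67, a distance from the median of all genes of -0.77 to -0.70, 26 to 32 lower genes of complexes II to V, and a difference in the share of counts of -0.115 to -0.101 percentage points. The calls over all genes differed much between these fits. They were fewest without WT_1, with 1531 genes lower and 1516 higher of 13804 tested. Most were made without FT_1, with 4337 lower and 4215 higher of 13765, and that fit also gave the 36 NDUF genes. Without FT_1 the sign changed for NDUFAF3 (range -0.017 to 0.23) and NDUFB2 (-0.25 to 0.015), and without FT_2 or FT_3 for NDUFA4L2 (-1.28 to 0.23). At these depths the lowest count of a member was 75, for NDUFAF2.

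FT and WT fetuses with the same replicate number are different animals. The correlations of their deviations from the group means were -0.000317, -0.0184 and 0.0199 across 13475 genes. Between differently numbered libraries they were near 0 too, from -0.0271 to 0.0277. No pairing by number was seen, and a shared batch was not tested. With the replicate block 1741 genes of all tested were lower and 1838 higher, against 2547 and 2714 without it. In that fit 29 NDUF genes were lower, 7 passed the study's threshold, the median was -0.68 and 26 genes of complexes II to V were lower, and of the genes given above as called NDUFV2, NDUFS3, NDUFA9, NDUFA12, SQOR, TUBB3 and CD68 were no longer called, with edgeR adjusted p of 0.0672, 0.0761, 0.0807, 0.0651, 0.0533, 0.112 and 0.0637 at folds of like size. Not every library correlated best with its own number.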

Other observations

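Iron-sulfur clusters are made in mitochondria before they reach complex I. Of 14 genes of their supply, 5 were lower in FT cells and 1 higher in edgeR (35.7% and 7.14%, against 18.9% and 20.1% of all genes tested), and the list's median was -0.42 on the log2 scale. HSPA9, the mitochondrial chaperone that helps to transfer clusters, had 132, 131 and 142 FPKM in the FT libraries and 262, 256 and 283 FPKM in the WT libraries (log2 fold change -0.83 ± 0.093 (SE), adjusted p 0.00184, edgeR). NFU1, a late carrier of clusters, had 23.1, 25.8 and 24.4 FPKM in the FT libraries and 54.4, 55.4 and 45.3 FPKM in the WT libraries (log2 fold change -0.92 ± 0.11 (SE), adjusted p 0.00214, edgeR). Neither gene's groups overlapped. ISCA1, named after its values were seen as the gene called higher, had 68.7, 69.6 and 65.0 FPKM in the FT libraries and 58.3, 56.5 and 54.5 FPKM in the WT libraries (log2 fold change 0.42 ± 0.070 (SE), adjusted p 0.00598, edgeR), with 0.27 by library totals and 0.26 in limma on log2(FPKM + 1). Without FT_1 ISCU, the scaffold protein, was called higher as well, at 0.62 (adjusted p 1.50e-05) in edgeR, and with a length trend removed at 0.66 (edgeR adjusted p 0.0355).

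Among 8 table entries for genes used as measures of mitochondrial content, 4 were lower in FT cells (50.0%, against 18.9% of all genes tested) and 4 did not pass the test. VDAC1, a channel of the outer membrane, had 63.4, 56.5 and 54.8 FPKM in the FT libraries and 142, 156 and 139 FPKM in the WT libraries (log2 fold change -1.16 ± 0.090 (SE), adjusted p 0.000827, edgeR). HSPD1, a matrix chaperone, has a pair of entries that may share reads, and the called entry (ENSBTAG00000012586) had 81.9, 76.8 and 82.1 FPKM in the FT libraries and 193, 224 and 184 FPKM in the WT libraries (log2 fold change -1.16 ± 0.10 (SE), adjusted p 0.00114, edgeR). The other entry was at -0.46 (edgeR adjusted p 0.0632). It was called lower without FT_1, at -0.63 (edgeR adjusted p 0.000132), by library totals (edgeR adjusted p 0.0330) and in limma on log2(FPKM + 1) (adjusted p 0.0241). CS, which encodes citrate synthase and is named after its values were seen, had 47.5, 69.4 and 71.3 FPKM in the FT libraries and 65.7, 72.1 and 63.8 FPKM in the WT libraries (log2 fold change 0.064 ± 0.18 (SE), adjusted p 0.801, edgeR). In CS FT_1 was the lowest library, and without FT_1 its log2 fold change was 0.24 with an edgeR adjusted p of 0.0140. Its sign turned to -0.091 by library totals and -0.12 in limma on log2(FPKM + 1), neither of them called.

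Of 11 regulators of respiratory chain genes, 3 were lower and 2 higher in FT cells. These shares of 27.3% and 18.2% lie near the 18.9% and 20.1% of all genes tested, and the list's median was 0.28 on the log2 scale, 0.13 without FT_1 and 0.098 in limma on log2(FPKM + 1). PPRC1, a coactivator related to PGC-1, had 17.3, 12.9 and 13.7 FPKM in the FT libraries and 7.32, 7.52 and 7.55 FPKM in the WT libraries (log2 fold change 1.13 ± 0.12 (SE), adjusted p 0.00153, edgeR). GABPA, the DNA-binding subunit of nuclear respiratory factor 2, had 15.0, 14.6 and 15.2 FPKM in the FT libraries and 25.0, 24.2 and 22.7 FPKM in the WT libraries (log2 fold change -0.53 ± 0.075 (SE), adjusted p 0.00361, edgeR). FT libraries were higher for PPRC1 and lower for GABPA, without overlap in either.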
